A study of Homo sapiens with 8 samples.

Results

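The genes described here are 29 transcriptional targets of p53, measured in 4 established human tumour cell lines that had each been sorted into ABCB5-positive and ABCB5-negative cells. They were listed by name, without death receptor and BCL2 family targets, and each was read from the probe set whose platform annotation names that gene and no other. A probe set of this kind was found for 26 of the 29 genes, 1 per gene, out of 18417 genes named on the array. BTG2, FDXR and GLS2 had none and have no level here. The list holds targets of p53 and not p53 itself.

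Each line, HCT116, COLO741, SW620 and HT29, gave 1 array of sorted ABCB5-positive cells and 1 array of ABCB5-negative cells, 8 arrays in all. The labels call HCT116 and COLO741 colon carcinoma, SW620 a colon carcinoma from a lymph node metastasis and HT29 a colon adenocarcinoma. All cells were grown in RPMI medium with foetal bovine serum and penicillin and streptomycin, and no drug or other treatment is named for either population. The sort used an antibody against ABCB5, an ATP-binding cassette transporter, and the series title ties that transporter to resistance against apoptosis. Nothing in the labels gives a second culture or sort of any line, so that the spread between arrays may be partly technical.

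p53 is a transcription factor that is stabilised after DNA damage and other stress, when its removal through the ubiquitin ligase MDM2 slows down. Its targets stop the cell cycle, repair DNA, adjust metabolism, start cell death and, through MDM2 and PPM1D, switch p53 off again. Loss of normal p53 function is common in colorectal carcinoma. HCT116 is known for an intact p53 gene, and SW620 and HT29 for mutant p53. The files hold no test of p53 status, and none is stated here for COLO741.

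The values are log2 expression levels, in which a difference of 1.0 is a 2-fold difference. Several features of the arrays touch the results below. ABCB5 transcript stood at 5.24 to 5.69 on the 6 arrays of HCT116, SW620 and HT29. All 6 values were below 5.73, the median of 360 olfactory receptor probe sets, which served as the measure of background. In COLO741 the ABCB5 transcript was 8.14 in the ABCB5-positive and 9.42 in the ABCB5-negative cells, the reverse of the order of the labels. The labels rest on an antibody against the protein and these values on RNA, from 1 array each, and the protein was not measured here. COLO741 had 9 of 9 measured melanocyte markers above 7.50, the 95th percentile of the olfactory probe sets, on both arrays. HCT116 had 4 of 9 above it, and SW620 and HT29 had 1 of 9. Of 14 measured epithelial markers, 7 were above it in COLO741, with CDX2 at 8.46 and 8.66, against 10 to 14 on the other arrays. The rest included EPCAM, CDH1 and VIL1, and VIL1 was also low on the ABCB5-negative HCT116 array. KRT20, CDH17 and TSPAN8 were at or below 7.50 in COLO741, HCT116 and SW620 alike. The melanocyte markers and the low EPCAM and CDH1 go against the colon label of COLO741. The ABCB5-positive SW620 array had 8 of 10 leukocyte and phagocyte markers above 7.50, against 3 of 10 on the ABCB5-negative SW620 array, and their mean log2 level was 8.58 against 7.38. CYBB was at 9.28 against 6.06. PTPRC was also higher, at 6.96 against 4.87, though PTPRC and CD3E were at or below 7.50 on both arrays. The part of these cells or transcripts in the differences below was not tested, and in bulk RNA fewer cells of a type and less RNA per cell cannot be told apart.

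All 26 genes passed the filter on dim genes, a mean of at least 5.73. SPATA18 and EDA2R lay under 7.50 on all 8 arrays, TP53INP1 on 6 of 8 and ACER2 on 1 of 8, in the range of genes that such cells are not thought to use. Log2 levels over all members and arrays ran from 6.08 to 14.00, and levels are compared below within a gene only.

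The DNA element through which p53 acts was looked for next to the start sites, because p53 binds its direct targets there, although many of its sites lie further away or within introns. The search used the 20-base p53 consensus, a repeat of its decamer site with no spacer, read on both strands in the 300 bases from 250 before to 50 after each RefSeq gene start (build GRCh38.p14). A RefSeq promoter was at hand for 25 of the 29 genes and not for FBXO22, TP53INP1, RRM2B and PHLDA3. With at most 3 mismatches the element was found in 6 of 25 member promoters (24.0%), against 5.13% of 27305 promoters of the same length. With at most 2 mismatches it was found in 2 of 25 (8.0%), against 0.63%. The 6 were AEN and GLS2, with 2 mismatches each, and FDXR, GDF15, RPS27L and XPC, with 3 each. The best matches in the CDKN1A and MDM2 windows had 5 mismatches. A match describes letters and no binding was measured. The 4 genes among the 6 that have a level on the array are shown, with the matched 20 bases in capitals.
AEN, the 250 bases before the start, chr15:88621090-88621339, plus strand: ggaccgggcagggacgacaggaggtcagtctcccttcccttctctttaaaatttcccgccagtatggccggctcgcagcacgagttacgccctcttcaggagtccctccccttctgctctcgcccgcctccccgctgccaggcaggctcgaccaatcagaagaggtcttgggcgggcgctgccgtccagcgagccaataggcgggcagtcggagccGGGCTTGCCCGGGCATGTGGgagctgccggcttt
RPS27L, the 250 bases before the start, chr15:63157478-63157727, minus strand: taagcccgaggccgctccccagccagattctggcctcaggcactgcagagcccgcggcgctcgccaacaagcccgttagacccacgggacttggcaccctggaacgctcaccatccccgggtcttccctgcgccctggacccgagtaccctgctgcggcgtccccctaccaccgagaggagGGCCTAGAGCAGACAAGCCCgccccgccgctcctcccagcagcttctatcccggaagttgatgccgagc
GDF15, the matched element after the start, chr19:18386186-18386205, plus strand: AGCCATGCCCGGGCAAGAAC
XPC, the matched element after the start, chr3:14178570-14178589, minus strand: GAATTTGCCCAGACAAGCAA

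Differences between the cell lines were wider than those between the sorted populations. Between the populations of 1 line, the median size of the log2 difference over the members was 0.1 in HCT116 and SW620, 0.12 in HT29 and 0.2 in COLO741. For the mean over the 4 lines, in which opposite signs cancel, it was 0.09. Between SW620 and HT29 the median size was 0.61. Against the mean of SW620 and HT29 it was 0.55 for COLO741 and 0.29 for HCT116. The highest and lowest of the 4 line means of a member, a wider measure than a single difference, were a median of 1.01 apart on the log2 scale. Over all 16910 genes tested they were 0.64 apart. HCT116 had the highest line mean for 10 of 26 members, COLO741 for 6, SW620 for 5 and HT29 for 5. Over all genes tested, HCT116 was highest for 28.3%, COLO741 for 25.0%, SW620 for 21.6% and HT29 for 25.1%. HCT116 was the lowest line for 1 member, FBXO22, against 9 for COLO741, 9 for SW620 and 7 for HT29. Over all genes tested HCT116 was lowest for 17.4%, COLO741 for 30.3%, SW620 for 30.4% and HT29 for 21.9%.

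Many members were marked out in 1 line, with both of its arrays beyond all 6 arrays of the other lines. HCT116 stood above all other arrays for MDM2, PPM1D, TP53INP1, CDKN1A, PLK3, RRM2B and SESN2 (7 of 26, against 16.4% of all genes) and below them for FBXO22 (1 of 26, against 10.5%). COLO741 was above for FBXO22, GDF15, ZMAT3, RPS27L and EDA2R (5 of 26, against 17.2%) and below for PPM1D, CCNG1, TP53INP1, PLK2, DDB2, SESN1, ACER2 and TRIAP1 (8 of 26, against 17.4%). SW620 was above for TIGAR, TP53I3 and CYFIP2 (3 of 26, against 14.1%) and below for CDKN1A, GDF15, SESN2, AEN, PHLDA3, RPS27L and SPATA18 (7 of 26, against 15.1%). HT29 was above for CCNG1, PLK2, SESN1 and ACER2 (4 of 26, against 14.9%) and below for XPC, RRM2B and ZMAT3 (3 of 26, against 13.2%). EDA2R and SPATA18 in all lines and TP53INP1 outside HCT116 lay under 7.50, so their placing rests on values near background. Some other placings rest on narrow gaps. FBXO22 in COLO741 was at 11.36 and 11.63, against up to 11.35 on the arrays of the other lines. RPS27L in SW620 was at 8.4 and 8.34, against 8.44 on the ABCB5-positive HT29 array.

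**Figure D1:**
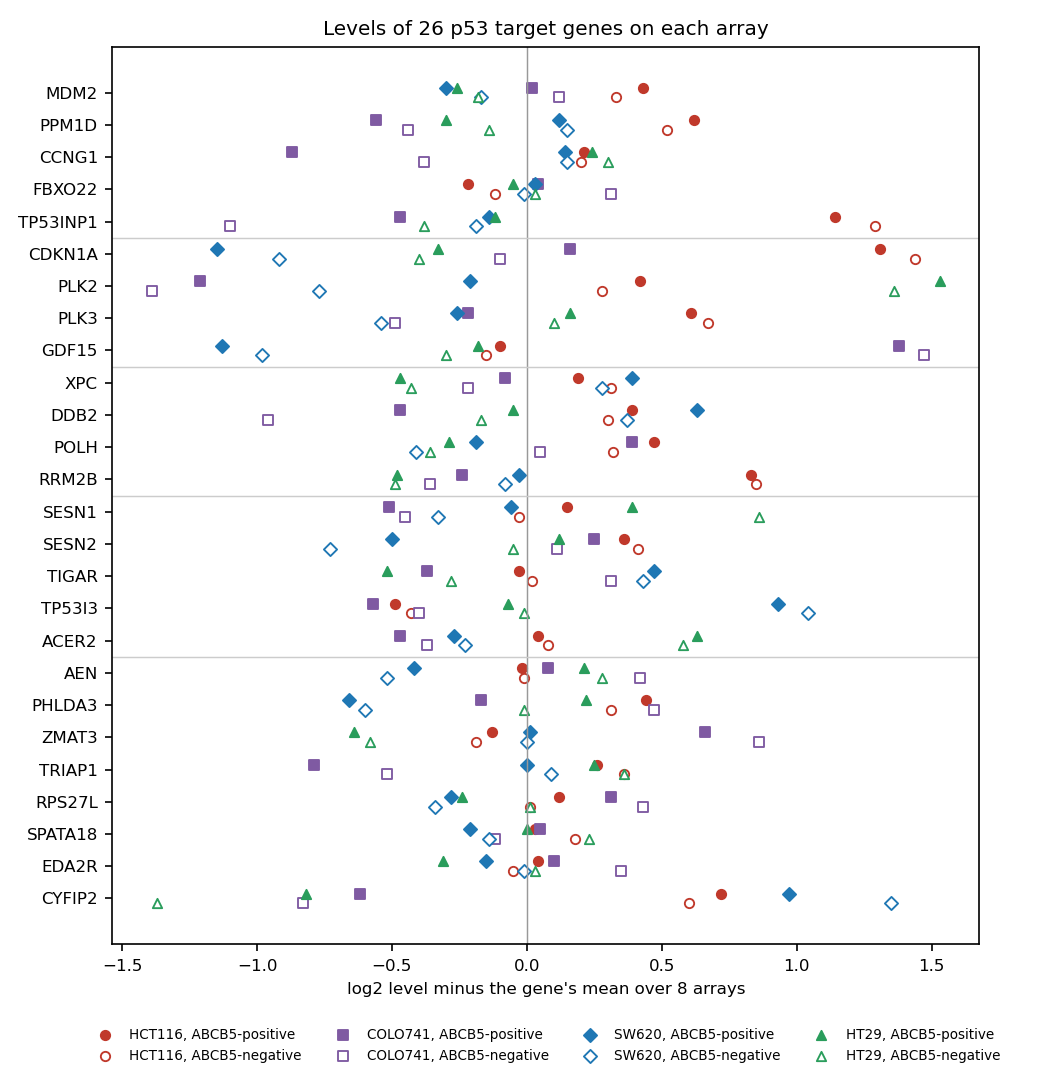
Each point is the log2 level of 1 of the 26 genes (rows, grouped by role between grey lines) on 1 array, minus the gene's mean over the 8 arrays; filled points are ABCB5-positive and open points ABCB5-negative cells. The filled and open points of a line mostly lie close together, while lines stand apart, as with HCT116 far right for TP53INP1 and CDKN1A and COLO741 far right for GDF15.

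HCT116 was set against the mean of SW620 and HT29 first, the line known for intact p53 against the lines known for mutant p53. The arrest gene CDKN1A was 4.21-fold higher in HCT116, the p53 cofactor gene TP53INP1 at least 2.14-fold and the nucleotide supply gene RRM2B 2.16-fold. The value for TP53INP1 is a bound against 7.50, since SW620 and HT29 lay below it. In all, 13 of 26 members passed an adjusted p of 0.05 (limma, adjusted over all genes tested), which is 50% against 39.4% of all genes. Of the 13, 12 were higher in HCT116 (46.2% of members, against 20.3% of all genes called higher) and 1 was lower (against 19.1%). The median log2 difference over the 26 members was 0.21, against 0.04 over all genes. The median size without sign was 0.29, against 0.22 over all genes. A difference of at least 2-fold was rarer: the 3 genes named were 11.5% of members, against 9.86% of all genes at that size in either direction and 4.73% in the higher direction. Both HCT116 arrays lay above all 4 arrays of SW620 and HT29 for 10 members (against 24.3% of all genes) and below them for 2 members (against 17.9%). Taken against SW620 and against HT29 in turn, 8 members were called higher both times, CDKN1A, MDM2, PLK3, POLH, PPM1D, RRM2B, SESN2 and TP53INP1, against 9.86% of all genes, and TP53I3 was called lower both times, against 8.53%. The 2 arrays of a line share that line, so these p-values measure the spread between sorted arrays and not between cell lines of a p53 status. Many other properties also differ between the 3 lines and cannot be told apart from p53 here.

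**Figure D2:**
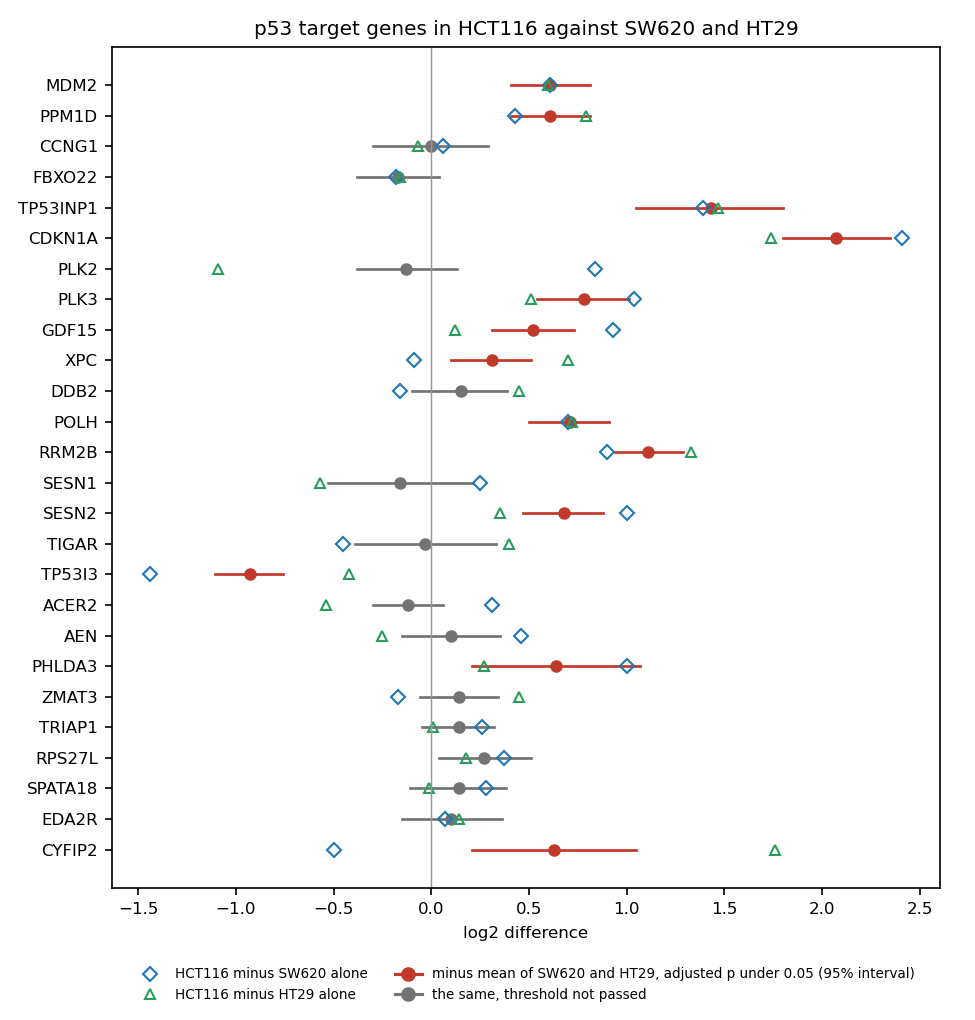
Dots are the log2 difference of HCT116 minus the mean of SW620 and HT29 for the 26 genes, with 95% intervals from the limma model, red where the adjusted p was under 0.05 and grey elsewhere; diamonds and triangles give HCT116 minus SW620 alone and minus HT29 alone. The diamond and the triangle lie together for MDM2 and POLH and on opposite sides of 0 for PLK2, XPC and CYFIP2 among others.

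MDM2 and PPM1D, feedback genes that hold p53 in check, were higher in HCT116. MDM2, the ubiquitin ligase that marks p53 for removal, had log2 levels of 12.77 and 12.67 in HCT116, 12.36 and 12.46 in COLO741, 12.04 and 12.17 in SW620 and 12.08 and 12.16 in HT29 (here and below the ABCB5-positive array before the ABCB5-negative one). The HCT116 arrays were the highest and the COLO741 arrays next, with no overlap between HCT116, COLO741 and the arrays of the other two lines. The log2 difference of HCT116 from SW620 and HT29 was 0.61 (SE 0.08, limma adjusted p = 0.00162), and it was 0.61 from SW620 alone and 0.60 from HT29 alone. PPM1D, a phosphatase that reverses damage signalling to p53, had log2 levels of 11.87 and 11.77 in HCT116, 10.69 and 10.81 in COLO741, 11.37 and 11.40 in SW620 and 10.95 and 11.11 in HT29. The 4 lines did not overlap, with HCT116 at the top and COLO741 at the bottom, and HCT116 stood 0.61 above the mean of SW620 and HT29 (SE 0.08, limma adjusted p = 0.00173).

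TP53INP1, a stress protein that works with p53, showed the widest gap of this role. Its log2 levels were 8.52 and 8.67 in HCT116, 6.91 and 6.28 in COLO741, 7.24 and 7.19 in SW620 and 7.26 and 7.0 in HT29. HCT116 was the only line above 7.50 on both arrays, and its log2 difference from SW620 and HT29 was 1.43 (SE 0.16, limma adjusted p = 6.53e-04). The measured means were 8.60 in HCT116 and 7.17 in SW620 and HT29, and since SW620 and HT29 are near background, only the bound of 2.14-fold against 7.50 is given as a fold. The strict filter on dim genes leaves TP53INP1 out, and then 2 members were at least 2-fold apart. CCNG1, cyclin G1, which guides a phosphatase to MDM2, had log2 levels of 13.22 to 13.23 in HCT116, 13.16 to 13.17 in SW620 and 13.26 to 13.32 in HT29. These 3 lines differed little, and the log2 difference of HCT116 had a 95% interval of -0.30 to 0.29. COLO741 was lower, at 12.15 and 12.64. FBXO22, a ubiquitin ligase subunit, was at 11.10 and 11.20 in HCT116 and between 11.27 and 11.63 on the other 6 arrays, and its log2 difference of -0.17 did not pass the test (limma adjusted p = 0.177).

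Of the arrest genes and kinases, CDKN1A carried the clearest difference. CDKN1A encodes p21, the inhibitor of cyclin-dependent kinases through which p53 holds cells before replication. Its log2 levels were 10.80 and 10.93 in HCT116, 9.65 and 9.39 in COLO741, 8.34 and 8.57 in SW620 and 9.16 and 9.09 in HT29. The 4 lines did not overlap and ran HCT116, COLO741, HT29, SW620 from high to low. The log2 difference of HCT116 from SW620 and HT29 was 2.07 (SE 0.11, 95% interval 1.80 to 2.35, limma adjusted p = 4.39e-05), larger in size than for 97.3% of all genes tested.

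PLK3, a polo-like kinase induced by stress, followed the same direction on a smaller scale. Its log2 levels were 10.47 and 10.53 in HCT116, 9.64 and 9.37 in COLO741, 9.60 and 9.32 in SW620 and 10.02 and 9.96 in HT29. HCT116 lay above all other arrays, COLO741 and SW620 overlapped, and the log2 difference of HCT116 was 0.78 (SE 0.10, limma adjusted p = 0.00118). PLK2, the related kinase, had log2 levels of 11.82 and 11.68 in HCT116, 10.19 and 10.01 in COLO741, 11.19 and 10.63 in SW620 and 12.93 and 12.76 in HT29. Here HT29 was highest, and HCT116 was 0.84 above SW620 and 1.09 below HT29 in log2 (differences of 0.84 and -1.09, limma adjusted p = 0.00237 and 7.20e-04), so that the mean of both gave -0.13, which did not pass (adjusted p = 0.398). GDF15, a secreted growth factor of the TGF-beta family, had log2 levels of 12.43 and 12.38 in HCT116, 13.91 and 14.00 in COLO741, 11.40 and 11.55 in SW620 and 12.35 and 12.23 in HT29. COLO741 was far above the rest and HCT116 barely above HT29. The log2 difference of HCT116 from both lines was 0.52 (SE 0.09, limma adjusted p = 0.00397), but 0.12 from HT29 alone (adjusted p = 0.433), and without the ABCB5-positive HCT116 array the adjusted p was 0.0605.

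**Figure D3:**
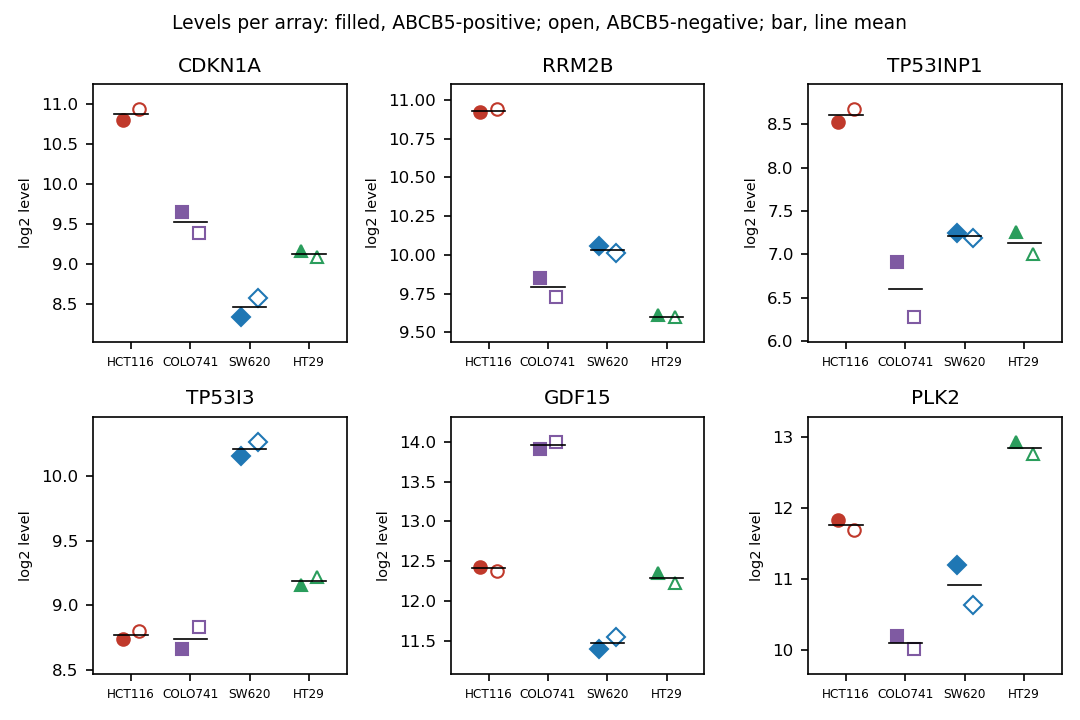
Log2 levels of 6 genes on the 8 arrays, by cell line, with filled points for ABCB5-positive cells, open points for ABCB5-negative cells and a bar at the line's mean; each panel has its own axis. CDKN1A, RRM2B and TP53INP1 are highest in HCT116, TP53I3 in SW620, GDF15 in COLO741 and PLK2 in HT29.

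In DNA repair and nucleotide supply, RRM2B and POLH were higher in HCT116. RRM2B, the p53-induced subunit of ribonucleotide reductase, had log2 levels of 10.92 and 10.94 in HCT116, 9.85 and 9.73 in COLO741, 10.06 and 10.01 in SW620 and 9.61 and 9.60 in HT29. The 4 lines did not overlap, and the log2 difference of HCT116 from SW620 and HT29 was 1.11 (SE 0.07, limma adjusted p = 8.08e-05). POLH, the translesion polymerase eta, had log2 levels of 11.45 and 11.30 in HCT116, 11.37 and 11.03 in COLO741, 10.79 and 10.57 in SW620 and 10.69 and 10.62 in HT29. HCT116 and COLO741 overlapped and both lay above SW620 and HT29, which overlapped each other. The log2 difference was 0.71 for HCT116 (SE 0.08, limma adjusted p = 9.61e-04) and 0.54 for COLO741 (SE 0.08, adjusted p = 0.00221).

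The damage sensors XPC and DDB2, which recognise lesions for nucleotide excision repair, followed another order. XPC had log2 levels of 8.51 and 8.63 in HCT116, 8.24 and 8.10 in COLO741, 8.71 and 8.60 in SW620 and 7.85 and 7.89 in HT29. HCT116 overlapped SW620 and lay above HT29, with log2 differences of -0.09 (limma adjusted p = 0.533) and 0.70 (adjusted p = 0.00202), and of 0.31 from their mean (adjusted p = 0.0315). That call was lost without any 1 of 5 single arrays, at an adjusted p of up to 0.277. DDB2 was at 11.13 and 11.04 in HCT116, 10.27 and 9.78 in COLO741, 11.37 and 11.11 in SW620 and 10.69 and 10.57 in HT29, and its log2 difference for HCT116 was 0.15 (limma adjusted p = 0.315).

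The metabolic and redox targets were split. SESN2, a sestrin that restrains growth signalling through mTORC1, had log2 levels of 9.50 and 9.55 in HCT116, 9.39 and 9.25 in COLO741, 8.64 and 8.41 in SW620 and 9.26 and 9.09 in HT29. SW620 stood below the other lines, and HCT116 was 1.00 above SW620 and 0.35 above HT29 on the log2 scale (limma adjusted p = 4.52e-04 and 0.0305). TP53I3, a quinone oxidoreductase named for its induction by p53, went the other way. It had log2 levels of 8.74 and 8.80 in HCT116, 8.66 and 8.83 in COLO741, 10.16 and 10.27 in SW620 and 9.16 and 9.22 in HT29. HCT116 and COLO741 overlapped at the low end, and the log2 difference of HCT116 from SW620 and HT29 was -0.93 (SE 0.07, limma adjusted p = 1.63e-04), with -1.44 from SW620 and -0.42 from HT29.

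SESN1, TIGAR and ACER2 did not pass the test for HCT116 against the mean of SW620 and HT29. SESN1, the sestrin related to SESN2, was at 8.84 and 8.66 in HCT116, 8.18 and 8.24 in COLO741, 8.63 and 8.36 in SW620 and 9.08 and 9.55 in HT29, in log2 levels. TIGAR, a phosphatase that lowers glycolysis, was at 9.89 and 9.94 in HCT116, 9.55 and 10.23 in COLO741, 10.39 and 10.35 in SW620 and 9.40 and 9.64 in HT29. ACER2, a ceramidase, was at 7.96 and 8.0 in HCT116, 7.45 and 7.55 in COLO741, 7.65 and 7.69 in SW620 and 8.55 and 8.50 in HT29. In each of these 3 genes HCT116 lay between SW620 and HT29, and SW620 and HT29 did not overlap. ACER2 passed against each line in opposite directions, with log2 differences of 0.31 from SW620 and -0.54 from HT29 (limma adjusted p = 0.0299 and 0.00311). SESN1 passed against HT29 alone (-0.57, adjusted p = 0.045). Likewise DDB2 and ZMAT3, each higher by 0.45, passed against HT29 alone (limma adjusted p = 0.0234 and 0.0109), and AEN, higher by 0.46, and RPS27L, by 0.37, against SW620 alone (adjusted p = 0.0234 and 0.0404).

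Of the 8 genes of survival, death and other roles, 2 were called higher in HCT116, which is 25.0%, near the 20.3% of all genes. PHLDA3, an inhibitor of the kinase AKT, had log2 levels of 9.79 and 9.66 in HCT116, 9.18 and 9.82 in COLO741, 8.69 and 8.75 in SW620 and 9.57 and 9.34 in HT29. The log2 difference was 0.64 (SE 0.18, limma adjusted p = 0.0298), mostly against SW620, and it missed the threshold against HT29 alone (0.27, adjusted p = 0.364) and without any 1 of 5 single arrays (adjusted p up to 0.248). CYFIP2, a subunit of the WAVE actin regulatory complex, had log2 levels of 10.53 and 10.41 in HCT116, 9.19 and 8.98 in COLO741, 10.78 and 11.16 in SW620 and 8.99 and 8.44 in HT29. HCT116 lay below SW620 and above HT29, with log2 differences of -0.50 (limma adjusted p = 0.0969) and 1.76 (adjusted p = 7.73e-04). Their mean, 0.63, passed (adjusted p = 0.0293) but not without any 1 of 3 single arrays (adjusted p up to 0.165).

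The other 6 genes of these roles had log2 differences of 0.10 to 0.27 for HCT116 and did not pass. RPS27L, a ribosomal protein of the S27 family, came nearest, with log2 levels of 8.80 and 8.69 in HCT116, 8.99 and 9.11 in COLO741, 8.40 and 8.34 in SW620 and 8.44 and 8.69 in HT29 (difference 0.27, limma adjusted p = 0.0673). AEN, an apoptosis-enhancing nuclease and the member with a level whose promoter holds the closest element, was at 11.12 and 11.13 in HCT116, 11.22 and 11.56 in COLO741, 10.72 and 10.62 in SW620 and 11.35 and 11.42 in HT29. HCT116 lay between SW620 and HT29 (difference 0.10, limma adjusted p = 0.477). ZMAT3, a zinc finger protein that binds RNA, and TRIAP1, a small mitochondrial inhibitor of apoptosis, each had a log2 difference of 0.14. SPATA18, which acts in mitochondrial quality control, and EDA2R, a TNF family receptor, were dim throughout, at 6.08 to 6.52 and at 6.42 to 7.08.

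COLO741 differed from SW620 and HT29 in both directions. GDF15 was 4.20-fold higher and ZMAT3 2.09-fold higher in COLO741, and PLK2 was 3.42-fold lower. In all, 19 of 26 members passed the test, which is 73.1% against 48.9% of all genes, with 9 higher (against 23.8%) and 10 lower (against 25.1%). The median log2 difference was -0.04, as it was -0.02 over all genes, while the median size without sign was 0.55 against 0.28. At least 2-fold were the 3 genes named, 11.5% of members, against 15.5% of all genes (8.50% higher and 6.97% lower). Both COLO741 arrays lay above all 4 arrays of SW620 and HT29 for 8 members (against 22.4% of all genes) and below them for 9 members (against 22.4%). This comparison uses the same SW620 and HT29 arrays as the one before, and each stands with its own values only.

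GDF15 had a log2 difference of 2.07 (SE 0.09, limma adjusted p = 6.21e-06) from the levels given above. ZMAT3 was at 10.92 and 11.12 in COLO741, 10.27 and 10.26 in SW620 and 9.62 and 9.68 in HT29, a log2 difference of 1.06 (SE 0.08, limma adjusted p = 9.35e-05), with HCT116 at 10.13 and 10.07. COLO741 lay above every other array for both genes. PLK2 differed by -1.78 (SE 0.11, limma adjusted p = 2.77e-05) and was lowest in COLO741. Called against SW620 and against HT29 in turn were GDF15, MDM2, POLH, RPS27L and ZMAT3 as higher (5 of 26, against 14.7% of all genes) and CCNG1, DDB2, PLK2, TP53I3 and TRIAP1 as lower (5 of 26, against 12.8%).

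Cyclin G1, the damage sensor DDB2 and TRIAP1 were thus low in COLO741. TRIAP1 had log2 levels of 9.88 and 10.15 in COLO741, 10.67 and 10.76 in SW620 and 10.92 and 11.03 in HT29, with HCT116 at 10.93 and 11.03, and its log2 difference was -0.83 (SE 0.08, limma adjusted p = 2.01e-04). DDB2 differed by -0.91 (SE 0.10, limma adjusted p = 4.77e-04) and CCNG1 by -0.83 (SE 0.12, adjusted p = 0.00155). CDKN1A was higher in COLO741, by 0.73 on the log2 scale (SE 0.11, limma adjusted p = 0.00219), though its difference from HT29 alone, 0.39, had an adjusted p of 0.0508. MDM2 was higher by 0.29 (SE 0.08, limma adjusted p = 0.025), a call lost without any 1 of 5 single arrays (adjusted p up to 0.115). The other calls were SESN2, AEN and EDA2R as higher and PPM1D, TP53INP1, SESN1, ACER2 and CYFIP2 as lower. EDA2R and TP53INP1 lay under 7.50 on every array of COLO741, SW620 and HT29, so their calls, counted above, rest on values near background. The calls of TP53INP1, SESN1, AEN, EDA2R and CYFIP2 were also lost without single arrays, at adjusted p-values of up to 0.192. Ordinary least squares ended the calls of these 5 genes and of MDM2 (adjusted p up to 0.129). Against SW620 alone or HT29 alone, PPM1D, TP53INP1, SESN1, SESN2, ACER2, AEN and EDA2R missed the threshold once each (adjusted p up to 0.964, for AEN against HT29), and CYFIP2 was 0.37 above HT29 on the log2 scale. PHLDA3, with arrays at 9.18 and 9.82 in COLO741, was not called (log2 difference 0.41, limma adjusted p = 0.103) but was without the ABCB5-positive COLO741 array (0.78, adjusted p = 0.00394). The melanocyte transcripts described above set COLO741 apart in many genes, and their part in these differences was not tested.

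SW620 and HT29 differed from each other in these genes as well, although both are known for mutant p53. CYFIP2 was 4.78-fold higher and TP53I3 2.03-fold higher in SW620, and PLK2 was 3.82-fold lower. Of 26 members, 17 passed the test (65.4%, against 40.0% of all genes), with 8 higher in SW620 (against 21.2%) and 9 lower (against 18.9%). The median size of the log2 difference, without sign, was 0.61, against 0.26 over all genes. The 3 genes past 2-fold were 11.5% of members, against 13.0% of all genes (7.27% higher and 5.74% lower). Both SW620 arrays lay above both HT29 arrays for 8 members (against 34.5% of all genes) and below them for 13 members (against 39.6%). All 4 arrest genes and kinases with a level were lower in SW620, with log2 differences of -1.93 for PLK2, -0.81 for GDF15, -0.67 for CDKN1A and -0.53 for PLK3 (limma adjusted p of 6.05e-05 to 0.00998). Of the repair genes, XPC, DDB2 and RRM2B were higher in SW620, by 0.78, 0.61 and 0.43 (limma adjusted p of 0.00118 to 0.00738). The sestrins SESN1 and SESN2 were lower, with log2 differences of -0.82 and -0.65, as were ACER2, AEN and PHLDA3, and TIGAR, ZMAT3 and PPM1D were higher. The adjusted p rose above 0.05 without at least 1 single array for PPM1D, CDKN1A, PLK3, DDB2, RRM2B, SESN1, TIGAR and PHLDA3, to at most 0.199.

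The sorted populations were compared within the lines, ABCB5-positive against ABCB5-negative, which is the comparison the series was made for. None of the 26 members passed an adjusted p of 0.05 (limma with the cell line as a block, lowest adjusted p = 0.898), and none of the 16910 genes did (0% called). At an unadjusted p under 0.05 there were 3 members, PLK2, DDB2 and POLH, all higher in ABCB5-positive cells, where 4.40% of all genes reached that level and 2.62% did so in the higher direction. The mean log2 difference was above 0 for 9 members and below 0 for 17, while 48.0% of all genes were above 0. The median over members was -0.04, against -0.00 over all genes. Mean log2 differences ran from -0.23 for TIGAR to 0.26 for PLK2. The 95% interval lay within 0.5 of 0 for 24 of 26 members, and the outermost bounds were -0.53 and 0.50.

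**Figure D4:**
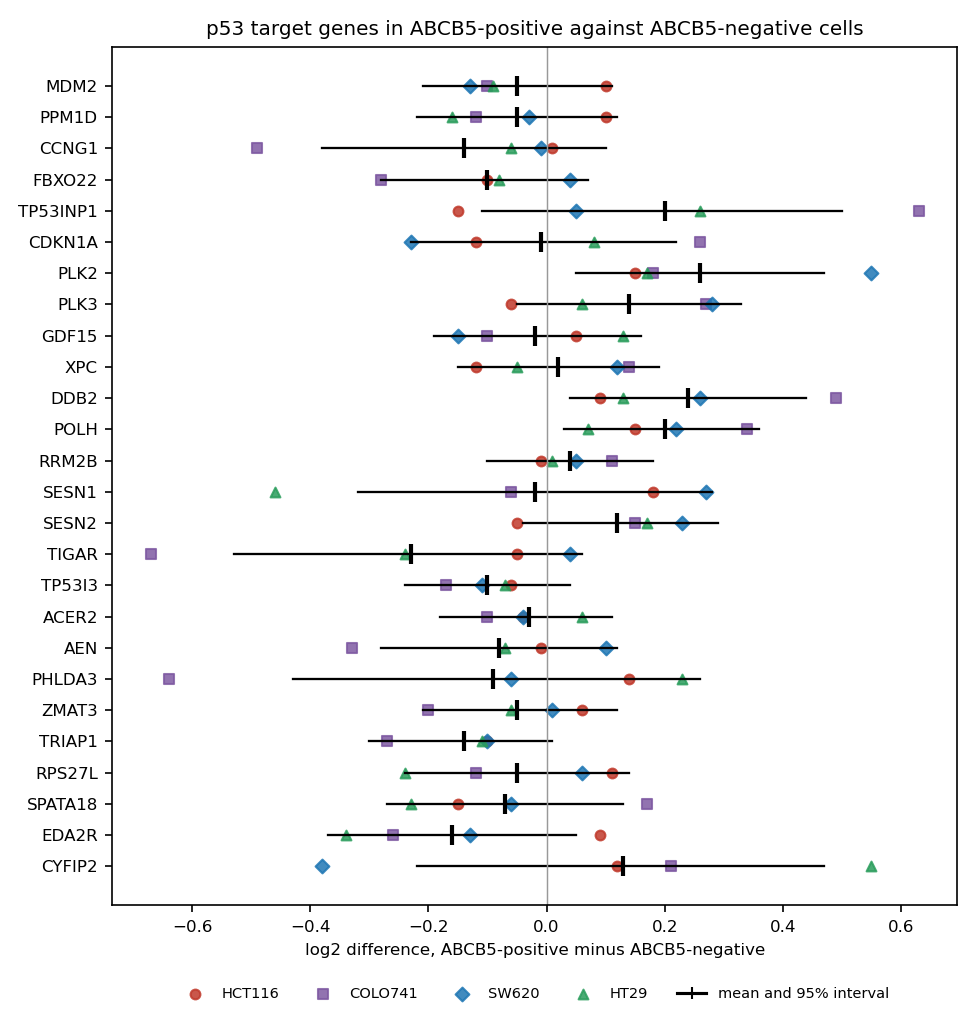
Points give the log2 difference of ABCB5-positive minus ABCB5-negative cells in each of the 4 lines for the 26 genes, and black bars the mean with its 95% interval from the limma model. The intervals of PLK2, DDB2 and POLH lie above 0 before adjustment, and COLO741 gives the outermost point for TIGAR, PHLDA3, TP53INP1 and CCNG1.

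PLK2 had log2 levels of 11.82 in ABCB5-positive against 11.68 in ABCB5-negative HCT116 cells, 10.19 against 10.01 in COLO741, 11.19 against 10.63 in SW620 and 12.93 against 12.76 in HT29. It was higher in 4 of 4 lines, with a mean log2 difference of 0.26 ± 0.19 (SD, n = 4, limma unadjusted p = 0.0211, adjusted p = 0.898). The SW620 difference of 0.55 was the largest, in the pair whose ABCB5-positive array also held more leukocyte transcripts, and the other 3 lines gave 0.15 to 0.18. DDB2 had log2 levels of 11.13 against 11.04 in HCT116, 10.27 against 9.78 in COLO741, 11.37 against 11.11 in SW620 and 10.69 against 10.57 in HT29, ABCB5-positive against ABCB5-negative cells. Its mean log2 difference was 0.24 ± 0.18 (SD, n = 4, limma unadjusted p = 0.0262, adjusted p = 0.898). POLH, at 11.45 against 11.30 in HCT116, 11.37 against 11.03 in COLO741, 10.79 against 10.57 in SW620 and 10.69 against 10.62 in HT29, had a mean difference of 0.20 ± 0.12 (SD, n = 4, limma unadjusted p = 0.0274, adjusted p = 0.898).

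These 3 genes were higher in all 4 lines, as were 6.39% of all genes, and TP53I3 and TRIAP1 were lower in all 4 lines, as were 6.98% of all genes. With the COLO741 arrays exchanged, the mean differences were 0.17 for PLK2, -0.00 for DDB2 and 0.02 for POLH. TP53I3 differed by -0.10 ± 0.05 and TRIAP1 by -0.14 ± 0.08 in log2 (SD, n = 4, limma adjusted p = 0.898 for both). CDKN1A had no common direction, with log2 differences of -0.12 in HCT116, 0.26 in COLO741, -0.23 in SW620 and 0.08 in HT29, and a mean of -0.01 ± 0.22 (SD, n = 4, limma adjusted p = 0.994, 95% interval -0.23 to 0.22). MDM2 had log2 differences of 0.10 in HCT116, -0.10 in COLO741, -0.13 in SW620 and -0.09 in HT29, and those of PPM1D were 0.10, -0.12, -0.03 and -0.16 in the same order.

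The pairs differed in how far apart their arrays were. In COLO741, 5 of 26 members differed by at least 0.4 in log2 between the populations, where 13.2% of all genes did: TIGAR by -0.67, PHLDA3 by -0.64, TP53INP1 by 0.63, DDB2 by 0.49 and CCNG1 by -0.49. In SW620 there was 1 such member, PLK2 (6.47% of all genes), and in HT29 there were 2, CYFIP2 with 0.55 and SESN1 with -0.46 (4.49% of all genes). HCT116 had none of 26, with differences of -0.15 to 0.18 (2.07% of all genes). Each line has 1 array per population, so these values carry no test. With the COLO741 arrays exchanged, as its ABCB5 transcript would have them, the median over members was 0.01 and 16 of 26 members were above 0, again with 0 called.

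Whether the difference between the sorted populations was another in HCT116 than in the other lines was tested on the 4 differences. HCT116 gave 1 such difference with no replicate, so the spread was taken from the other 3 lines. Missing the threshold does not show that the populations differ alike in all lines. No member passed (limma, all adjusted p = 1.0, lowest unadjusted p = 0.0963 for EDA2R), and 0 of 16910 genes passed, with 321 at an unadjusted p under 0.05. The median over members was 0.03 in log2, against -0.01 over all genes.

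Other genes of the pathway were read in the same fits. Of 32 further p53 targets, 30 were tested. In HCT116 against SW620 and HT29, 9 of the 30 were called higher and 8 lower, where 20.3% and 19.1% of all genes were, and the median log2 difference was 0.12, against 0.04 over all genes. The smallest adjusted p-values were those of KITLG, the ligand of the receptor KIT, which differed by 3.31, of CD82, a tetraspanin, by -2.47, and of PRDM1, a transcriptional repressor, by -1.63 (limma adjusted p = 4.75e-06, 1.50e-05 and 4.20e-05). KITLG had log2 levels of 13.21 and 13.19 in HCT116, 7.9 and 7.73 in SW620 and 11.91 and 12.02 in HT29. CD82 was at 8.99 and 9.04 in HCT116, 10.65 and 10.53 in SW620 and 12.39 and 12.37 in HT29. For both genes SW620 and HT29 lay apart, so the difference from their mean describes neither line. PRDM1 was at 7.23 and 6.99 in HCT116, 10.38 and 10.05 in SW620 and 7.38 and 7.14 in HT29. For PRDM1, SW620 alone lay above 7.50, and HCT116 and HT29 were both near background. Of 16 regulators of p53, 2 were called higher and 5 lower in HCT116, which is 43.8%, near the 39.4% of all genes. MDM4, which blocks p53 beside MDM2, differed by 0.99 (limma adjusted p = 1.45e-04), and the damage kinases ATM and ATR by -1.12 and -0.70 (adjusted p = 2.13e-04 and 9.20e-04).

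Between the sorted populations none of the 30 further targets and none of the 16 regulators passed. The smallest unadjusted p-values were those of FUCA1, a lysosomal fucosidase, with a log2 difference of 0.33 ± 0.28 (SD, n = 4, limma unadjusted p = 0.022, adjusted p = 0.898), and of MDM4, with -0.14 ± 0.07 (SD, n = 4, limma unadjusted p = 0.0624, adjusted p = 0.898).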

How the data were processed

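The authors deposited log2 expression values for 33297 probe sets of 8 Affymetrix Human Gene 1.0 ST arrays, made with Affymetrix Expression Console per the submitters' processing notes. The version of that program and how it summarised and normalised the probes were not given in the sources used here. Their log2 scale was read from the range of 2.99 to 15.24, and array medians lay at 8.03 to 8.10. The number of arrays limits the precision. Sample labels name SW620 where the series design text names SW480; the labels were followed and the point was not settled.

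The platform annotation named the probe sets, 19460 with 1 gene, 1754 with several (not used) and 12083 unlisted, and 19429 gene identifiers matched RefSeq. For 769 genes with several probe sets the brightest was taken. Genes under the olfactory median (1507) were left out. Differences were tested with limma 3.58.1 in R 4.3.3, two-sided, with Benjamini-Hochberg adjustment over 16910 genes, and the code was tested on simulated data. Populations were compared with the cell line as a block, since the labels give both populations of a pair the same line. The deviations of the paired arrays from the means over the 4 lines correlated at 0.932 to 0.963. Such values reflect the shared line and cannot show a shared culture or sort. Lines were compared with the population as covariate. The model had 3 residual degrees of freedom plus 3.44 from moderation.

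The members, roles and lists were chosen with earlier results of these data known. Every member is named, and from the other lists the 3 genes of smallest adjusted p for HCT116 and the 1 of smallest unadjusted p for ABCB5. The counts of arrays apart, of calls against each line in turn and of differences of at least 0.4 were added after the data were seen, and the printed promoters were narrowed to genes with a level. Alternatives were no block, a random block, ordinary least squares, filters, quantile normalization, every probe set, single arrays or lines left out, other comparison lines, exchanged COLO741 arrays and a threshold of 0.01.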

Additional observations from a re-analysis of the deposited data

Results flagged for a closer look

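Dixon's criterion (critical value 0.829) was applied to 78 groups of 4 values, 1 value per line. The groups were the ABCB5-positive levels, the ABCB5-negative levels and the differences of the 26 members. In 4 of the 78 groups a line lay far from the other 3. This is near the share of about 1 in 20 that chance gives. The groups are not independent, since the differences are built from the same levels, and CCNG1 was flagged in both. CCNG1 in ABCB5-positive cells was at a log2 level of 12.15 in COLO741, against 13.16 to 13.26 in the other lines. Its difference between ABCB5-positive and ABCB5-negative cells was -0.49 in COLO741, against -0.06 to 0.01 elsewhere. PLK2 had a difference of 0.55 in SW620, against 0.15 to 0.18 elsewhere, and in that pair 9 of 10 leukocyte and phagocyte markers were also higher in the ABCB5-positive cells, by a median of 0.82, whose part in the PLK2 difference was not tested. TRIAP1 had a difference of -0.27 in COLO741, against -0.11 to -0.10 elsewhere. In COLO741 the ABCB5 transcript also ran against the labels of the 2 arrays.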

How the results depend on the processing

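Between the sorted populations, 0 members and 0 genes were called under every alternative run. As a paired analysis, the fit with the replicate block put 3 members and 744 genes at an unadjusted p under 0.05, and with no replicate block it was 0 members and 27 genes. It was 1 member with a random block, without COLO741, without SW620 and with the COLO741 arrays exchanged. Exchanging the COLO741 arrays turned the sign of PPM1D (0.01), CCNG1 (0.11), FBXO22 (0.03), TP53INP1 (-0.12), GDF15 (0.03), XPC (-0.05), DDB2 (-0.00), RRM2B (-0.02), SESN1 (0.01), TIGAR (0.11), ACER2 (0.02), AEN (0.09), PHLDA3 (0.24), ZMAT3 (0.05) and RPS27L (0.01). Quantile normalization turned CDKN1A (0.01). Leaving out 1 line gave -0.09 to 0.07 for CDKN1A, -0.06 to 0.03 for GDF15, -0.02 to 0.07 for XPC, -0.11 to 0.13 for SESN1, -0.14 to 0.01 for AEN, -0.19 to 0.10 for PHLDA3, -0.08 to 0.00 for ZMAT3, -0.10 to 0.02 for RPS27L and -0.02 to 0.29 for CYFIP2. For HCT116 against the other lines in that difference, ordinary least squares put 2 members and 583 genes at an unadjusted p under 0.05, where moderated variances put 0 and 321.

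For HCT116, leaving out 1 array gave 9 to 13 calls among members and a median of 0.18 to 0.26. The median was 0.27 with the strict filter, 0.34 against SW620 alone and 0.31 against HT29 alone. Calls over all genes were 6658, and 3619 without either HCT116 array or 4299 at an adjusted p of 0.01. Members called and at least 2-fold apart were 3, and 2 with the strict filter, 6 against SW620 or 5 against HT29. Against SW620 alone the sign turned for CCNG1 (0.06), PLK2 (0.84), XPC (-0.09), DDB2 (-0.16), SESN1 (0.25), ACER2 (0.31), ZMAT3 (-0.17) and CYFIP2 (-0.50), and against HT29 alone for TIGAR (0.40), AEN (-0.25) and SPATA18 (-0.01). TIGAR was 0.03 after quantile normalization. Leaving out 1 array gave -0.11 to 0.10 for CCNG1, -0.15 to 0.09 for TIGAR and -0.06 to 0.27 for EDA2R. Ordinary least squares ended the calls of XPC, PHLDA3 and CYFIP2 (adjusted p up to 0.159). The single arrays whose loss ended a call were both of HCT116 (XPC, PHLDA3, CYFIP2, and the ABCB5-positive one GDF15), the ABCB5-negative HT29 array (XPC, PHLDA3, CYFIP2), the ABCB5-positive HT29 array (XPC), the ABCB5-negative SW620 array (XPC, PHLDA3) and the ABCB5-positive SW620 array (PHLDA3), with adjusted p of 0.0605 to 0.277.

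For COLO741, the median was 0.09 against HT29 alone and -0.12 to 0.00 without 1 array, and calls among members were 13 to 19. Members at least 2-fold apart were 3, and 5 against either line alone. The sign turned against SW620 alone for PLK3 (0.04) and SPATA18 (0.14), and against HT29 alone for XPC (0.30), RRM2B (0.19), TIGAR (0.37) and CYFIP2 (0.37). After quantile normalization RRM2B was 0.04, TIGAR 0.01 and SPATA18 0.01. Without 1 array RRM2B was -0.08 to 0.02, TIGAR -0.35 to 0.24 and SPATA18 -0.17 to 0.15. Leaving out the ABCB5-negative COLO741 array ended the calls of MDM2, TP53INP1, SESN1, AEN, EDA2R and CYFIP2, the ABCB5-positive one those of MDM2, SESN1 and EDA2R, and single SW620 or HT29 arrays those of MDM2, TP53INP1, AEN and EDA2R, with adjusted p of 0.0501 to 0.192.

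For SW620 against HT29, calls among members were 10 with ordinary least squares and 11 to 19 without 1 array, the lowest without the ABCB5-positive HT29 array. The median was -0.13 with the strict filter and -0.15 to -0.03 without 1 array. Calls over all genes were 6772, and 4308 or 4358 without an HT29 array or 4436 at an adjusted p of 0.01. After quantile normalization FBXO22 was -0.02 and POLH -0.01. Without 1 array MDM2 was -0.06 to 0.04, FBXO22 -0.08 to 0.12, TP53INP1 -0.02 to 0.18, POLH -0.06 to 0.11 and EDA2R -0.06 to 0.18. Leaving out the ABCB5-positive HT29 array ended the calls of PPM1D, CDKN1A, DDB2, RRM2B, TIGAR and PHLDA3, the ABCB5-negative one those of PPM1D, PLK3, RRM2B, SESN1 and TIGAR, the ABCB5-positive SW620 array those of PPM1D, CDKN1A, TIGAR and PHLDA3 and the ABCB5-negative one those of PPM1D, PLK3, SESN1 and PHLDA3, with adjusted p of 0.0527 to 0.199. Without a COLO741 array TRIAP1 and SPATA18 passed (adjusted p = 0.0394 and 0.0368), and TRIAP1 also with the strict filter (0.0452) and after quantile normalization (-0.30, 0.0326). The cause of these changes was not tested, beyond there being fewer arrays or another comparison line. Where 1 array of a line was left out, the array that remained was assumed to vary like those of the other lines.

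With 4 pairs and 2 arrays per line, small differences could not be told from the spread. SPATA18 and EDA2R lay near background on all arrays, where folds are compressed.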
